A study of Mus musculus with 12 samples.

Results

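The regions described here are stretches of m1A-enriched RNA that lay inside very long genes. They were chosen by gene length alone: a peak belonged to the set when its summit, the position of highest tag coverage, lay on chromosomes 1 to 19 within the span of a protein-coding gene of 500 kb or more. Peaks of different libraries that shared at least 1 bp were merged into 1 region. This gave 1397 regions, made from 1927 peaks, of 13572 regions in the whole series and 13137 on chromosomes 1 to 19. Of 20665 protein-coding genes on these chromosomes, 216 were this long (called long genes below), and 192 of them (88.9%) held a region.

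The study asked where in the transcriptome TET1 affects m1A, by RNA immunoprecipitation and sequencing of the caudate putamen (CPu), the dorsal striatum, of adult male mice. All mice were Tet1 fl/fl, with loxP sites in both copies of Tet1. AAV-EGFP was injected into the CPu of the control group (Tet1 fl/fl) and AAV-Cre-EGFP into that of the knockout (KO) group (Tet1 delta/delta), and the CPu was taken 2 weeks later. The 12 samples were 3 m1A pull-downs and 3 inputs per genotype, and each pull-down gave 1 peak list with its own input as background. The virus acts locally in adult tissue, so cells that took up no virus kept their floxed alleles; the promoter that drives Cre is not given in the labels. The labels do not state that numbered libraries came from separate animals, so p-values over libraries reflect the spread among the libraries at hand, and this spread may be technical. Tet1 itself spans 82.9 kb and had 0 peaks in each of the 6 lists, so the lists hold no check of the deletion.

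N1-methyladenosine (m1A) carries a methyl group on the face of adenosine that pairs with uridine, and it blocks that pairing. It is best known from transfer RNA, where the TRMT6 and TRMT61A enzyme pair places it in the T loop within a GUUCRA sequence, and in messenger RNA it has been mapped mostly near the start of the transcript. TET1 is an enzyme that oxidises methylcytosine of DNA and so takes part in DNA demethylation. The longest mammalian genes are nearly all intron, and many of them serve neurons: they encode adhesion proteins, synaptic scaffolds, receptor phosphatases, ion channels and splicing factors. Their unspliced transcripts are found in the nucleus, and the gene spans used here include introns.

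Part of the regions lay at a listed transcript start of their gene, and the bases there are shown for 6 genes whose region began at or near a listed start and was called in 3 or more libraries. The sequences are RefSeq promoter windows of GRCm38.p6, cut to 70 bases before and 29 bases after the start, on the gene's strand and 5′ to 3′. Capitals mark the bases that lay in the merged region. Nbea (chr3:56183672-56183771, minus strand), Pcdh9 (chr14:93890650-93890749, minus strand) and Lsamp (chr16:39984294-39984393, plus strand) had a region called in all 6 libraries, and the Pcdh9 start lies inside the gene span, which ends at 93892834. Kalrn (chr16:34513998-34514097, minus strand) had one called in 4, at a listed start inside the gene, whose span ends at 34573277, and Kcnd2 (chr6:21215276-21215375, plus strand) and Grm7 (chr6:110645442-110645541, plus strand) had one called in 3.
Nbea: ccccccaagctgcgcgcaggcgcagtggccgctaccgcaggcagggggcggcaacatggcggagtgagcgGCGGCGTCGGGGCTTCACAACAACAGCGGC
Pcdh9: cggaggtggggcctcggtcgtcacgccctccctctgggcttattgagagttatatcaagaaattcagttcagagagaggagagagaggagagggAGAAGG
Lsamp: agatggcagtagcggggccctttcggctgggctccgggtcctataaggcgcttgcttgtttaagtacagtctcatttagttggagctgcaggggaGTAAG
Kalrn: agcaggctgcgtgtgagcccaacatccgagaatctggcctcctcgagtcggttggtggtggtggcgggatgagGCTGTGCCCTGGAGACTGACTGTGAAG
Kcnd2: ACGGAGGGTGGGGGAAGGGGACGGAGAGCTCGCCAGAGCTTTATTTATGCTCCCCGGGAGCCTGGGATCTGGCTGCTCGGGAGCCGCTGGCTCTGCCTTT
Grm7: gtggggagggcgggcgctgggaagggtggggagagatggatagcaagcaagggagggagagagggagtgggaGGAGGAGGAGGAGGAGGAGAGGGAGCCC

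In 5 of these 6 genes the region lay downstream of the start shown, and that of Kcnd2 covered all 100 bases shown, upstream ones included. The full windows ran from 250 bases before to 50 bases after each start. The letters of the transfer RNA recognition sequence, searched as GTTCGA and GTTCAA on both strands (the reverse complements, TCGAAC and TTGAAC, differ from both), occurred in 11.7% of all 32851 windows and in 8.49% of the 271 windows of long genes. They occurred in 3 (5.45%) of the 55 windows of the 31 long genes with a region within 500 bases downstream of a start. In the other long genes they occurred in 20 (9.26%) of the 216 windows. Of the 6 genes shown, Kcnd2 alone held them in its full window. The median GC content was 61.0% in the 55 windows, 55.5% in those of the other long genes and 52.7% over all windows. The median number of CpG dinucleotides was 16, 10.5 and 7 in the same order. Windows of 1 gene can overlap, and these figures describe annotated sequence, not sites of methylation. The windows stop 50 bases after a start. The summits of Nbea, Pcdh9 and Lsamp lay 180, 155 and 141 bases downstream of the nearest listed start, so the search did not cover the sequence at them.

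Control 1 and KO 2 stood apart from the other libraries in long genes, and the main comparisons below are given with and without them. Peak calling rested on 459332, 1097292 and 864206 tags for controls 1, 2 and 3, and on 1235247, 2508102 and 1336328 tags for KO 1, 2 and 3. Control 1 was thus the shallowest and KO 2 the deepest, and control 1 was the only list called with every duplicate tag kept. Peaks in long genes numbered 328, 169 and 150 in controls 1, 2 and 3 and 203, 924 and 153 in KO 1, 2 and 3. As a share of each list's peaks these were 10.7%, 5.07% and 5.14% in the controls and 5.54%, 13.8% and 5.13% in the KO libraries. Control 1 and KO 2 were thus high and the other 4 libraries lay close together, irrespective of genotype. Most of the peaks of these 2 libraries lay in regions that no other library called: 287 of the 328 peaks of control 1 (87.5%) and 749 of the 924 peaks of KO 2 (81.1%) stood alone, against 14% to 23.6% in the other 4. The peaks of control 1 were small. Their median pileup, the tag coverage at the summit, was 3 tags against 14 to 16 in the other libraries, and 89.0% of them had exactly the modelled fragment length of 170 bp, against 12.4% to 17.3% elsewhere. Those of KO 2 had a median pileup of 16 tags. The part of depth and duplicate handling in these counts was not tested.

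**Figure D1:**
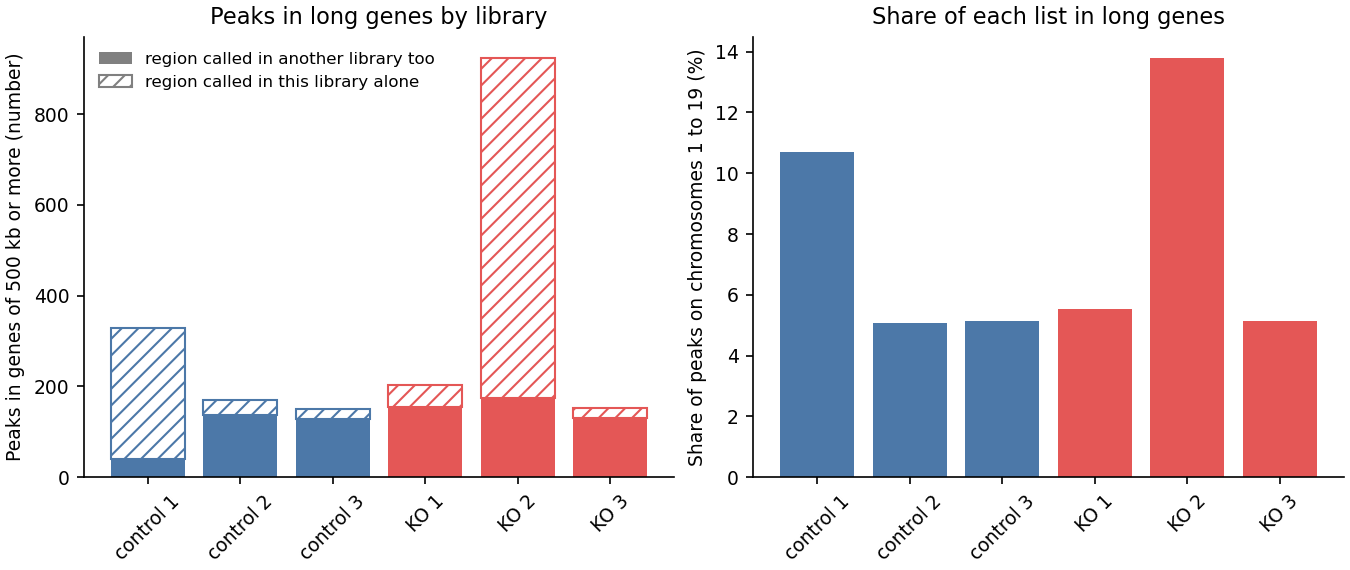
Left, number of peaks in genes of 500 kb or more in each pull-down library (blue, control; red, KO), split into peaks whose region was called in another library too (filled) and in that library alone (hatched); right, the same peaks as a percentage of all peaks of the list on chromosomes 1 to 19. KO 2 has 924 such peaks, 749 of them alone, and control 1 has 328, 287 of them alone, while the other 4 libraries have 150 to 203.

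In every library a larger share of long genes than of shorter genes held a peak, while summits per Mb were fewer in long genes in 5 of 6 libraries. Neither difference passed 0.05 after adjustment. Of the 216 long genes, 151, 95 and 89 had a peak in controls 1, 2 and 3 and 101, 163 and 86 in KO 1, 2 and 3. These were 69.9%, 44.0%, 41.2%, 46.8%, 75.5% and 39.8% of the long genes. Of the 2097 genes of 100 to 500 kb, the class closest in length, 34.0%, 23.5%, 20.8%, 24.3%, 41.4% and 20.5% had one in the same libraries. The share was higher for long genes in 6 of 6 libraries, by 25.4 ± 7.48 percentage points (mean ± SD, n = 6). The exact two-sided sign-flip permutation test over 6 libraries gave p = 0.0312, the smallest it can give, and 0.0781 after Benjamini-Hochberg adjustment over 5 comparisons, which did not pass 0.05. Without control 1 and KO 2 the difference was 20.6 points. The classes were set by length and a longer gene has more room for a summit. The test therefore cannot separate length from other traits of the genes.

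Longer genes offer more sequence: the 216 long genes cover 180 Mb and the 2097 genes of 100 to 500 kb cover 403 Mb. Overlapping spans were counted once, and bases inside long genes were left out of the shorter class. Summits per Mb of gene span were 1.82, 0.938 and 0.833 in long genes in controls 1, 2 and 3 and 1.13, 5.13 and 0.849 in KO 1, 2 and 3. In genes of 100 to 500 kb they were 2.41, 1.74, 1.48, 1.84, 4.60 and 1.52. The density was lower in long genes in 5 libraries and higher in KO 2, with a mean difference of -0.481 ± 0.502 summits per Mb (exact sign-flip permutation p = 0.0625, adjusted 0.104, n = 6). Without control 1 and KO 2 it was -0.708. Peak height and length were compared with other genic peaks of the same list. The median fold enrichment was 3.84, 7.45, 7.20, 7.81, 7.57 and 8.27 in long genes and 4.71, 7.11, 7.14, 7.16, 7.08 and 7.51 in protein-coding genes under 500 kb, in the same library order. Long genes were below the others in control 1 and above them in the other 5 libraries, by 0.239 ± 0.594 on average (exact sign-flip permutation p = 0.375, adjusted 0.469, n = 6). The difference was 0.460 without control 1, 0.156 without KO 1, 0.136 without KO 3 and 0.453 without control 1 and KO 2. The median peak length differed by 4.5 ± 10.0 bp (exact sign-flip permutation p = 0.5, adjusted 0.5, n = 6), by 1 bp without KO 1, by 6.8 bp without KO 2 and by 8.5 bp without control 1 and KO 2.

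**Figure D2:**
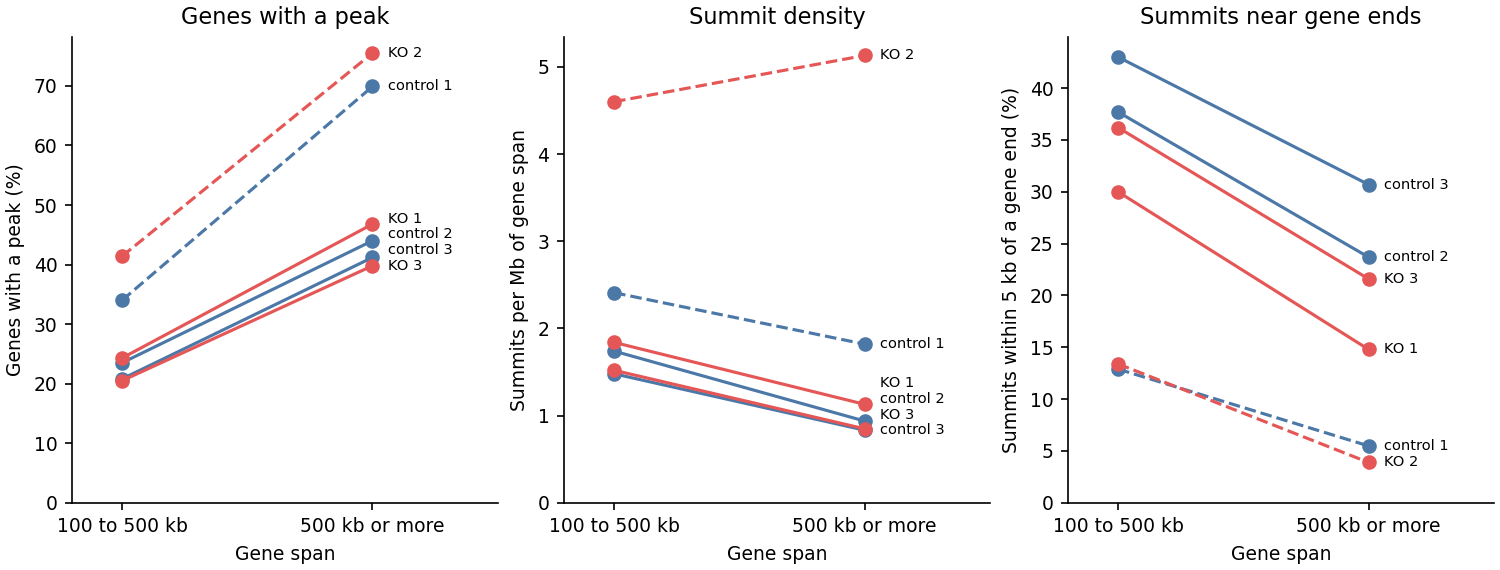
Genes of 100 to 500 kb and of 500 kb or more, joined for each pull-down library (blue, control; red, KO; dashed, control 1 and KO 2): share of genes with a peak (left), summits per Mb of gene span (middle) and share of summits within 5 kb of either end of the gene (right). The share of genes with a peak is 20.5 to 41.4% in the shorter class and 39.8 to 75.5% in long genes, higher in long genes in all 6 libraries, and the share of summits near an end is lower in long genes in all 6. The 5 kb windows cover 1.18% of the summed spans of long genes and 5.12% of those of the shorter class, and the shares are not scaled by this.

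With all listed peaks, control and KO libraries overlapped in the number of long genes with a peak and in their share of each list. The share of peaks in long genes was 8.15 ± 4.87% in KO and 6.97 ± 3.24% in control libraries (SD, n = 3 each), a difference of 1.17 points (exact permutation p = 0.6, adjusted 0.700 over 4 comparisons). Without KO 2 the difference turned to -1.63 points, and without control 1 and KO 2 the means were 5.34% and 5.10%. With only peaks of a −log10 q-value of at least 5 the shares no longer overlapped. Every KO share was then above every control share, with a difference of 3.14 points (exact permutation p = 0.1, adjusted 0.267). The number of long genes with a peak was 117 ± 40.8 in KO and 112 ± 34.2 in control libraries (n = 3 each; exact permutation p = 0.7, adjusted 0.700). Without KO 2 the difference, KO minus control, was -18.2 genes, without control 2 or control 3 it was -3.33 or -6.33, with lists of equal length it was -15.7, and without control 1 and KO 2 the means were 93.5 and 92.0. Among all protein-coding genes that held a peak, the long ones made up 4.58 ± 0.532% in KO and 5.28 ± 1.66% in control libraries (n = 3 each; exact permutation p = 0.7, adjusted 0.700). Without control 1 that difference turned to 0.246 points, and with peaks of a −log10 q-value of at least 5 to 0.00282 points. With 3 libraries against 3 this test cannot give a p below 0.1, so a difference of any size would have missed 0.05.

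Most regions in long genes were called in a single library. Of the 1397 regions, 1159 (83.0%) were called in 1 library, against 68.9% of all regions on chromosomes 1 to 19. Those of control 1 alone made up 20.5% and those of KO 2 alone 53.6% of the long-gene regions, against 15.5% and 32.8% of all. In 2, 3, 4, 5 and 6 libraries there were 109, 54, 28, 25 and 22 regions. Those of 2, 3, 4 and 5 libraries were 7.80%, 3.87%, 2.00% and 1.79% of the set, against 12.7%, 7.25%, 4.34% and 3.78% of all regions. The 22 regions called in all 6 were 1.57% of the set, against 2.95% of all regions. Without control 1 alone, 42 regions were called in all of the other 5 libraries, and the matching share of all regions was not computed. When control 1 and KO 2 were left out, 357 regions remained, of which 48 (13.4%) were called in all 4 libraries, against 14.2% of all regions counted in the same way. At the level of whole genes, 44 of the 192 long genes with a peak (22.9%) had one in all 6 libraries, against 8.80% of all 5577 protein-coding genes with a peak. These gene shares were not scaled by gene length. Only 19 long genes (8.80% of the 216) held a region that all 6 libraries called, and 49 (22.7%) held nothing but regions of control 1 or KO 2 alone. No set test was made, and these shares describe the lists.

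Among the 22 regions called in every library, 4 of the 15 long synaptic scaffold genes were represented, more than of any other list. Nbea, which encodes neurobeachin, an anchoring protein needed for membrane traffic to synapses, held the region that ranked first by its lowest fold (chr3:56183363-56183701). Its authors' fold enrichments were 33.0, 43.6 and 42.5 in controls 1, 2 and 3 and 19.2, 15.2 and 25.5 in KO 1, 2 and 3. The 3 control values were above the 3 KO values, and in every list at least 94.9% of peaks had a lower fold. Each fold is relative to the background of its own list and the lists differ in depth, so values of different lists are set side by side here and below as a description, without a test. Dlgap2, a scaffold that binds PSD-95, held 2 such regions. The first (chr8:14534491-14534949) had folds of 24.6, 34.8, 20.9, 11.8, 22.4 and 18.1 in the same library order, and the other (chr8:14306728-14307403) 22.0, 23.7, 19.6, 8.16, 8.86 and 6.56. KO 2 lay within the control range in the first region, while all KO values were below the controls in the second. Magi2, which organises receptors at the postsynaptic membrane, had a region 32.2 kb from its 3′ end (chr5:20672326-20673266) with folds of 20.9, 17.8, 16.5, 14, 12.9 and 11.6. Anks1b, a postsynaptic density protein, had the region with the lowest fold among the 22 (chr10:90692826-90693449), at 12.3, 12.8, 13, 5.07, 7.73 and 3.62.

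Adhesion proteins formed the next group. Lsamp and Negr1, both immunoglobulin-type proteins anchored to the neuronal surface, and Pcdh9, a protocadherin, carried their region close downstream of a listed start. Lsamp (chr16:39984389-39984756) had folds of 10.5, 15.1, 21.8, 15.0, 8.81 and 13.3, with KO 2 lowest. Pcdh9 (chr14:93890371-93890655) had 8.38, 12.3, 17.2, 19.4, 10.5 and 15.7, with control 1 lowest. Negr1 (chr3:156562024-156562341) had 8.08, 7.39, 5.08, 7.79, 7.35 and 7.64, with control 3 lowest. The control and KO values of these 3 regions overlapped. Ptprn2, a receptor phosphatase of dense-core vesicles, had a region 38.4 kb from its 3′ end (chr12:117239250-117239928), inside the overlapping gene Gm5441 as well, with folds of 15.2, 14.4, 21.7, 13.5, 12.4 and 13.9. Lingo2, a leucine-rich repeat membrane protein, had folds between 6.26 (KO 3) and 13.6 (KO 2).

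Signalling, channel and other genes held the rest. Nrg1, which encodes neuregulin, the ligand of ErbB receptors, had folds of 15.7, 18.3, 14.5, 9.15, 21.1 and 11.3 (chr8:32467633-32468308), with KO 2 highest and KO 1 lowest. Arhgap26, a GTPase-activating protein, had folds of 14.9, 14.8, 15.2, 18.2, 13.2 and 19.3 (chr18:39178713-39179564). Dpp6, an auxiliary subunit of A-type potassium channels, had a region (chr5:27245629-27246395) with folds of 9.32, 32.6, 26.5, 26.6, 8.04 and 40.6. Control 1 and KO 2 were low there and the other 4 high, in both genotypes. Kcnma1, the pore-forming subunit of the BK potassium channel, had a region (chr14:24004311-24004948) with folds of 13.9, 15.0, 13.5, 5.81, 7.13 and 13.7. Its summit lay at -435 bases from the nearest listed start, which is upstream of that start, and 470 bases inside the 5′ end of the gene span. Fam155a, a subunit of the sodium leak channel complex, had a wide region of 1111 bp with folds from 7.91 to 11.7. St6galnac3, a sialyltransferase, had folds of 15.7, 12.8, 9.03, 15.2, 26.2 and 22.3, and Enox1, a surface oxidase, had 2 regions, the first at 10.0, 16.3, 14.2, 12.9, 12.8 and 13.5. The remaining regions lay in Auts2, a regulator of neuronal transcription (1.43 kb from one end of the gene, folds 5.79 to 14.6), in Ccser1 (6.31 to 20.1) and in Etl4, which held 2 (7.52 to 21.2 and 4.36 to 18.7).

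**Figure D3:**
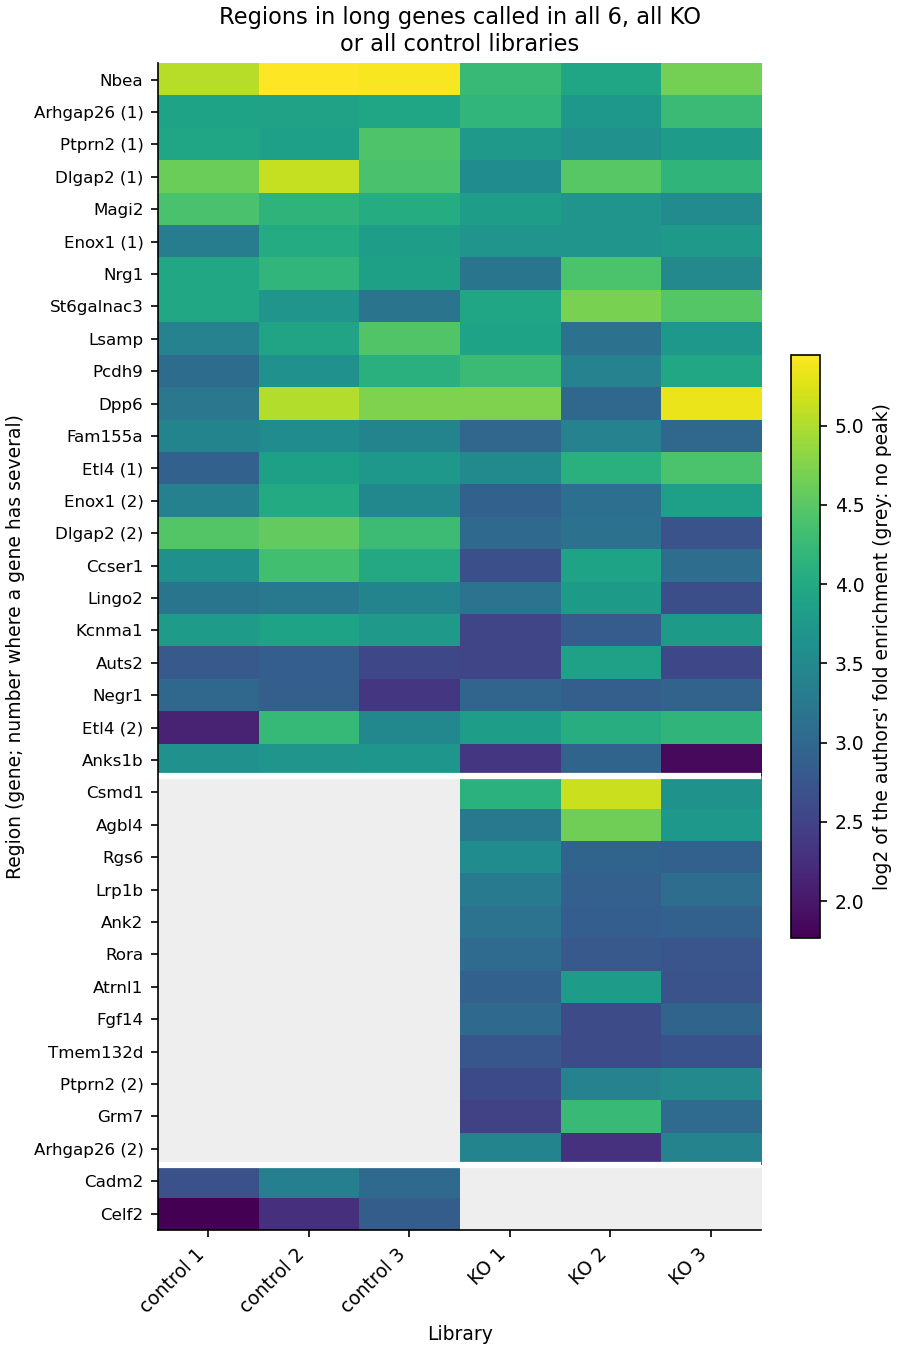
Authors' fold enrichment on a log2 colour scale in each pull-down library (columns) for the regions in long genes called in all 6 libraries (top block), in all KO and no control libraries (middle) and in all control and no KO libraries (bottom); grey marks a list with no peak there. The 22 regions of the top block span 3.62 (Anks1b, KO 3) to 43.6 (Nbea, control 2), and folds of different lists are not on 1 scale.

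A further 25 regions were called in 5 libraries, and the library without a call was control 1 for most of them. By lowest fold, the first of these lay in Camta1, a calmodulin-binding transcription activator (13.4 to 24.1). Others lay in Rbfox1, a splicing factor of neurons (9.47 to 26.3), and in Nlgn1, a postsynaptic adhesion protein that binds neurexins (5.37 to 14.8). Grik2, a kainate receptor subunit, had 6.62 to 11.7 and Cacna2d3, an auxiliary calcium channel subunit, 5.34 to 13.1. These examples were chosen after their values were seen.

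The 12 regions called in all 3 KO and no control libraries were 0.859% of the long-gene regions, against 1.45% of all regions on chromosomes 1 to 19. Csmd1, a membrane protein of the CUB and sushi family, held the first by lowest fold (chr8:17265720-17265975), with folds of 17.4, 35.4 and 12.6 in KO 1, 2 and 3. Agbl4, a carboxypeptidase of the kind that trims glutamate chains on tubulin, followed (chr4:110802133-110802435) with 9.52, 25.0 and 13.2. In both, KO 2 was the highest. Grm7, a presynaptic metabotropic glutamate receptor, had 5.58, 18.9 and 8.27 (chr6:110802900-110803214), and this region lay 158 kb inside the gene, apart from the one at its start. The other 9 lay in genes of varied roles. Rgs6, a regulator of G protein signalling, had folds of 11.7, 7.77 and 7.51 (chr12:83083500-83083757), and Lrp1b, a receptor of the LDL receptor family, 9.62, 7.43 and 8.43 (chr2:42200083-42200365). Ank2, the ankyrin that ties membrane proteins to spectrin, had 9.01, 7.31 and 7.51 (chr3:127190160-127190344), and Rora, a nuclear receptor, 8.30, 6.94 and 6.68 (chr9:68663497-68663698). The rest lay in Atrnl1 (6.52 to 13.8), Fgf14 (6.08 to 8.13, also within 1700024B18Rik), Tmem132d (6.08 to 6.70), Ptprn2 (6.02 to 11.3) and Arhgap26 (4.91 to 10.7, also within Gm52330). The nearest of them to a gene end was that of Tmem132d, at 3.38 kb.

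The 2 regions called in all 3 control and no KO libraries were 0.143% of the long-gene regions, against 0.807% of all regions. Cadm2, a synaptic immunoglobulin-type adhesion protein, had one 282 bases downstream of its start (chr16:67620480-67620823), with folds of 6.43, 10.2 and 8.13 in controls 1, 2 and 3. Celf2, an RNA-binding regulator of splicing, had one 320 kb inside the gene (chr2:7076177-7076387), with 3.40, 4.86 and 7.21. Both groups of regions were small beside their background, and no list of the opposite genotype held a peak over any of the 14. The shallowest KO library had more tags than the deepest control library, so genotype and depth cannot be told apart in these calls, and a region without a peak was not called at that depth rather than shown to lack m1A. With control 1 and KO 2 left out there were 26 regions in both remaining KO and no control libraries and 20 the other way. The count of 12 became 20, 28, 25 and 34 when control 2, KO 1, KO 2 or KO 3 alone was left out, and the count of 2 became 12 without control 1. With all lists cut to the same length of 2918 peaks the counts were 5 and 3. At the level of genes, 2 long genes had peaks in all KO and no control libraries (1.04% of 192, against 1.78% of all genes with a peak). These were Rbms3, an RNA-binding protein, and Tmem132d, a membrane protein of neurons. The reverse pattern was found in 0 long genes, against 0.843% of all genes with a peak.

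Most summits in long genes lay far from the ends of the gene, and the share near an end was larger among regions called in several libraries. Within 5 kb of either end of the gene there were 18, 40 and 46 summits in controls 1, 2 and 3 and 30, 36 and 33 in KO 1, 2 and 3. As shares these were 5.49%, 23.7%, 30.7%, 14.8%, 3.90% and 21.6%, low in control 1 and KO 2. In genes of 100 to 500 kb the shares were 12.9%, 37.7%, 43.0%, 30.0%, 13.4% and 36.2%. The share was lower in long genes in 6 of 6 libraries, with a mean difference of -12.2 ± 3.12 percentage points (exact sign-flip permutation p = 0.0312, adjusted 0.0781, n = 6), and without control 1 and KO 2 the difference was -14 points. These end windows cover 1.18% of the summed spans of long genes and 5.12% of those of the shorter class. The mean shares, 16.7% in long genes and 28.9% in the shorter class, were not scaled by this cover. Relative to it, summits near an end were more frequent in long genes, so the lower raw share shows no lesser preference for ends. Between genotypes the share was 13.4 ± 8.91% in KO and 19.9 ± 13% in control libraries (n = 3 each; exact permutation p = 0.5, adjusted 0.700). The difference of -6.53 points was -13.8 without control 1, -1.16 without control 3, -1.77 without KO 2 and -10.6 without KO 3. Without control 1 and KO 2 the means were 18.2% and 27.2%.

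The 5′ end held more summits than the 3′ end in every library. Strand was known for the 169 long genes with a listed start, and within 5 kb of the 5′ end lay 14, 29 and 34 summits in the controls and 21, 21 and 25 in the KO libraries. Within 5 kb of the 3′ end lay 3, 5 and 5 and 3, 8 and 2. By regions, the share within 5 kb of an end was 4.23% of those called in 1 library and 14.7%, 20.4%, 28.6%, 16.0% and 27.3% of those called in 2, 3, 4, 5 and 6. Of the 1104 regions in genes with a listed start, 31 had their strongest summit within 500 bases downstream of one and 10 within 500 bases upstream. Each of the 31 lay in a different gene. For Nbea, Pcdh9 and Lsamp, whose sequences are shown above, the strongest summit lay 180, 155 and 141 bases downstream of the nearest listed start, and for Negr1 394. The Pcdh9 start shown above is not the nearest one. From the start shown, the Pcdh9 summits lay 152 to 180 bases downstream over the 6 libraries. Kalrn, a guanine nucleotide exchange factor of dendritic spines, had its summit at 109 bases in 4 libraries. Sema6d, a semaphorin of axon guidance, had it at 139, Ptprn2 at 167, Nrxn3, a presynaptic neurexin, at 307, and Rims1, an active zone scaffold, at 485. Over the 6 libraries the summits lay between 174 and 187 bases from the nearest listed start in Nbea, 142 and 170 in Pcdh9, 128 and 190 in Lsamp and 388 and 472 in Negr1. Those of Nrxn3 lay between 307 and 529 bases over 4 libraries.

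**Figure D4:**
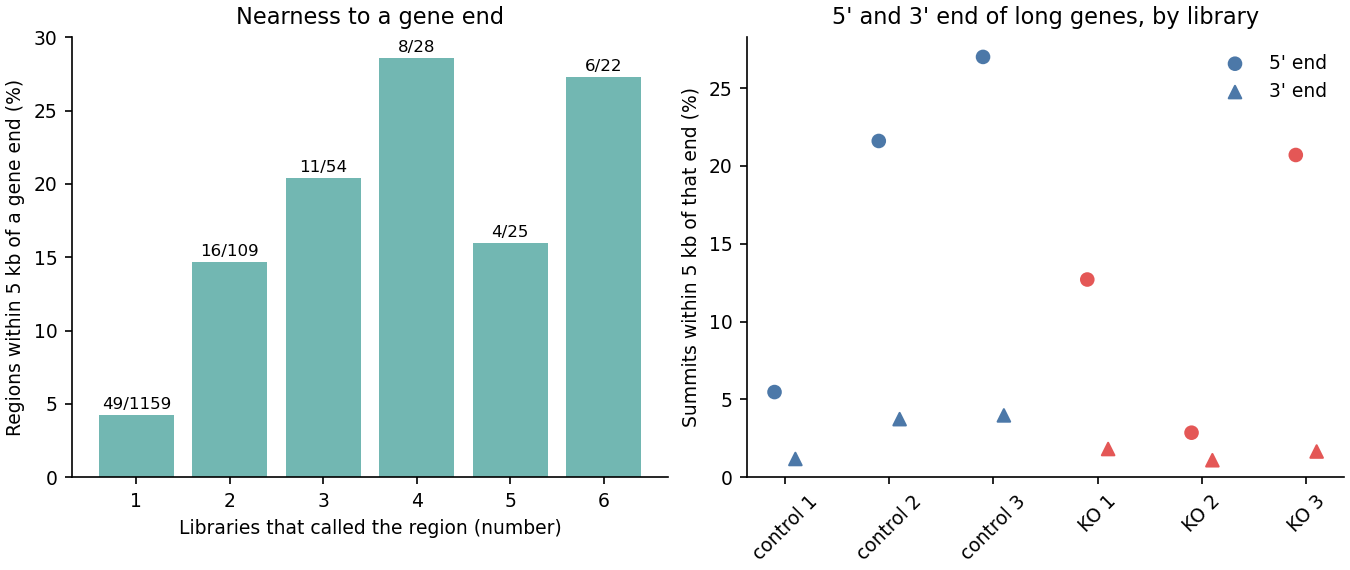
Left, share of long-gene regions within 5 kb of either gene end by the number of libraries that called the region, with the counts above the bars; right, share of summits within 5 kb of the 5′ end (circles) and the 3′ end (triangles) of long genes with known strand in each pull-down library (blue, control; red, KO). Regions of 1 library lie near an end in 4.23% of cases and those of all 6 in 27.3%, and the 5′ share is above the 3′ share in every library.

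A few genes held many of the regions. Rbfox1, a splicing factor that binds introns of neuronal transcripts, held 66, more than any other long gene. It had 4, 6 and 10 peaks in controls 1, 2 and 3 and 10, 56 and 6 in KO 1, 2 and 3, and 44 of its regions were called in KO 2 alone. Its 14 regions called in 2 or more libraries were the most among the 10 genes with the most regions. Nrg1 followed with 30 regions, Csmd1 with 27, and Auts2 with 26. Nrxn3 had 24, Anks1b and Pcdh9 23 each, Fam155a 20, and Dpp6 and Robo2, an axon guidance receptor, 19 each. In all 10 genes KO 2 had the most peaks. Robo2 had 3, 0 and 0 peaks in the controls and 0, 15 and 2 in the KO libraries, and 1 of its regions was called in more than 1 library. These 10 genes held 277 (19.7%) of 1409 pairs of gene and region, and 182 of the 277 came from KO 2 alone.

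**Figure D5:**
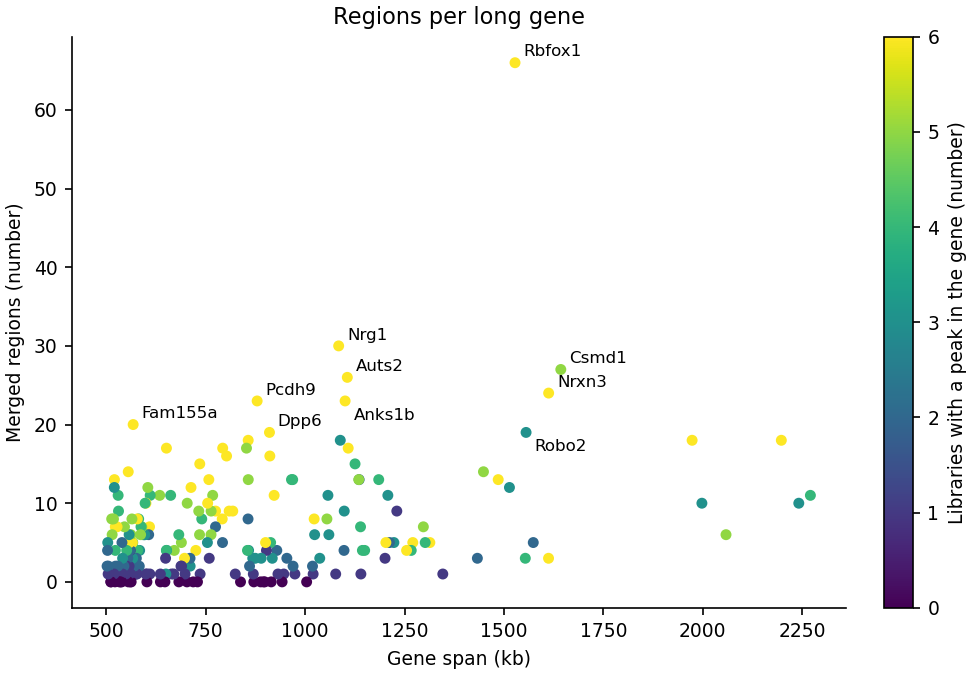
Gene span in kb against the number of merged regions for the 216 long genes, coloured by the number of libraries with a peak in the gene; the 10 genes with the most regions are named. Rbfox1 stands highest with 66 regions, and genes without a region occur at spans up to 1004 kb.

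Length alone went only loosely with the number of regions. Over the 216 long genes, Spearman's rank correlation between span and regions was 0.30, a description across genes of the same libraries. There were 24 genes with 0 regions, 28 with 1, 112 with 2 to 9 and 52 with 10 or more, and the median was 5. The longest gene, Ptprd, a receptor phosphatase of synapses (2271 kb), had 11 regions, of which 7 were of KO 2 alone and 3 of control 1 alone. Cntnap2, a neurexin-like adhesion protein (2241 kb), had 10, with 4 from each of those libraries alone. Lsamp (2197 kb) had 18, Lrp1b (2058 kb) 6 and Macrod2, an ADP-ribose hydrolase (1998 kb), 10. The longest genes without a region were Pard3b, a cell polarity protein (1004 kb), Sntg1, a syntrophin (941.9 kb), Adamtsl1 (914.5 kb), Spag16, a protein of cilia (898.3 kb), and Agbl1 (895.1 kb). The median span was 754 kb for long genes with a region and 665 kb for those without. Just inside the length limit lay Edil3 (502 kb, 2 peaks in all lists together), Dock1 (503 kb, 4) and Samd12 (503 kb, 6), and just outside it Dnm3 (496 kb, 7), Lrrc7 (495 kb, 4) and Cacna1e (494 kb, 9).

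The long genes are grouped by role below. For reference, 192 of 216 long genes (88.9%) had a peak in at least 1 library, 44 (20.4%) had one in all 6, and the median number of regions was 5. All 15 long scaffold genes had a peak, 7 of them in all 6 libraries, and their median was 8 regions. In addition to those above, Dlg2, the scaffold PSD-93, had 18 regions and was called in 6 libraries. All 17 neurexin, neuroligin and receptor phosphatase genes had a peak, 6 of them in all libraries. Nrxn3 had 24 regions, Ptprn2 17 and Nlgn1 16. Of 15 immunoglobulin-type adhesion genes 14 had a peak and 5 had one in all libraries. Kirrel3, an adhesion protein of synapse formation, had 14 regions, 11 of them in KO 2 alone. All 8 cadherin, catenin and protocadherin genes had a peak, but only Pcdh9 in every library. Ctnnd2, delta-catenin of dendritic spines, and Cdh13, a cadherin anchored without a cytoplasmic tail, had 13 regions each.

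Every listed receptor and channel gene had a peak. All 5 neurotransmitter receptor genes had a peak, and Grm7 (11 regions) and Grik2 (3) had one in all 6 libraries. Gabrg3, a GABA-A receptor subunit, had 4 regions and no peak in KO 3. All 11 channel genes had a peak, and Dpp6, Kcnma1 (12 regions) and Cacna2d3 (9) had one in every library. Of 10 axon guidance genes all had a peak, and Nav2, a cytoskeletal guidance protein (17 regions), and Sema6d (8) had one in all 6. Dab1, the adaptor of reelin signalling, had 15 regions and no peak in KO 1 or KO 3. The 6 genes of the CUB and sushi, LDL receptor and sorting receptor families all had a peak, and Sorcs3, a sorting receptor of neurons, had one in all 6 libraries.

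Each of the remaining lists included a gene or genes without a peak. Of all long genes 88.9% had a region, and a difference between these lists and the others was not tested. Of 14 growth factor and kinase signalling genes 12 had a peak, and Nrg1 and Nrg3, another neuregulin (17 regions), had one in all libraries, while Fgf14, a sodium channel partner, had none in control 2. Of 10 genes of cyclic nucleotide and G protein signalling 9 had a peak, and Arhgap26 alone had one in every library. Kalrn had 12 regions and Elmo1, a regulator of Rac, 8. Of 4 RNA-binding genes 3 had a peak: Rbfox1, Celf2 (18 regions) and Rbms3 (11). Of 15 transcription factor and chromatin genes 14 had a peak, with Auts2, Camta1 (16 regions) and Rora (15) in all libraries. Of 10 cytoskeletal genes 8 had a peak, Ccser1 in every library, and Syne1, a nuclear envelope protein, had 9 regions. Of 27 genes of common fragile sites and metabolism 25 had a peak and 4 had one in all 6 libraries. St6galnac3 and Atrnl1 had 7 regions each and Exoc4, a subunit of the exocyst, 4. The lists share some genes, 165 long genes were on at least 1 of the 14 lists, and the lists were drawn up with the lengths of genes in view.

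The lists of cell type markers, of any length, were used to check the tissue. For reference, of all 20665 protein-coding genes on chromosomes 1 to 19, 2099, 2260 and 1998 had a peak in controls 1, 2 and 3. In KO 1, 2 and 3 the numbers were 2364, 3141 and 2017. Of 24 markers of medium spiny neurons, the main cell type of the CPu, 7, 16 and 14 had a peak in controls 1, 2 and 3 and 8, 18 and 12 in KO 1, 2 and 3. Ppp1r1b, which encodes DARPP-32, Adcy5, Pde10a and Gng7 had a peak in all 6 libraries. The dopamine receptor gene Drd1 and the peptide genes Tac1 and Pdyn had 0 peaks in each. Markers of other cells were called too: of 15 oligodendrocyte markers 1, 7 and 6 in the controls and 7, 6 and 5 in the KO libraries, and of 14 astrocyte markers 1, 5 and 6 and 7, 6 and 5. Of 13 microglia markers 0 to 5 had a peak in a library, of 11 endothelial markers 0 to 3, of 9 choroid plexus markers 0 to 3, of 10 markers of cortical excitatory neurons 1 to 3 and of 12 markers of striatal interneurons 0 to 1. Given the share of all genes with a peak, small counts among these markers do not show that a cell type was captured. No test was made against that share. Control 1 had the fewest marker genes of spiny neurons, oligodendrocytes and astrocytes. For spiny neurons KO 1 came next with 8, and KO 2 had the most, 18. Fewer cells of a type and less RNA per cell cannot be told apart in tissue samples, and the part of cell composition in the results was not tested. In each library 5.49% to 7.68% of the summits in long genes lay in another annotated gene as well, and the lists carry no strand, so these cannot be assigned to one of the overlapping genes.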

How the data were processed

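m1A pull-downs of 6 CPu libraries were analysed as peak lists. Tools named in the submitters' processing notes were MACS2 2.2.6, HISAT2 2.1.0 and cutadapt 2.8, with the build GRCm38. Per the file headers, the authors called peaks with MACS2 on every pull-down separately, with the matching input as background, at a q-value limit of 0.01 and an extension of 150 bp. The deposited lists give each peak's position, its pileup (a coverage signal), the −log10 of its p-value and q-value, and its fold enrichment, a ratio over local background. Fold values were used to describe peaks and to compare peaks within a list, and regions shared by several lists were ordered by their lowest fold for naming. No fold was tested between genotypes.

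Summits were placed in gene spans of a RefSeq table of GRCm38.p6 with Python 3.11.15, numpy 2.4.6 and pandas 2.3.3. Listed starts and sequences came from RefSeq promoter windows, which matched 169 of 216 long genes. Genotypes were compared with the exact permutation test over 20 assignments (smallest p 0.1), and length classes with the exact sign-flip permutation test over 64 patterns (smallest p 0.0312), with Benjamini-Hochberg adjustment within 4 and 5 tests. The scripts were tested on simulated data. GC content and exons around summits had been planned as a result and were not analysed here, since no genome of the build was used. A presence or absence call has no counting interval. Alternatives covered the peak threshold, list length, gene length, merging, the end window and left-out libraries.

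Text names follow a rule: up to 12 regions called in all 6 libraries, in all KO or in all control libraries alone, ranked by lowest fold; the 10 genes with the most regions; the 5 longest genes with and without a region; up to 3 genes per list by number of libraries; and 3 genes on each side of the length limit. The other 10 regions called in all 6 libraries, those called in 5, and the other genes with a region at a start were named after their values were seen. The members and lists were chosen with earlier results of these data known.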

Additional observations from a re-analysis of the deposited data

How the results depend on the processing

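Of 182 recomputed values, 162 kept their direction and side of the threshold or stayed within 1.5 times the count, 13 moved and 7 reversed. The count of 162 was partly fixed in advance and is no measure of robustness. Differences with the replicate number as a block equal the main ones by construction. Tests whose smallest p lies above 0.05 could not change side of the threshold. No test passed 0.05 after adjustment in any setting. The share of peaks in long genes, KO minus control, ranged from -1.63 (without KO 2) to 3.04 points when 1 library was left out. With a −log10 q-value of at least 5 it was 3.14 points. At that threshold every KO share lay above every control share (exact permutation p = 0.1, the smallest possible, adjusted 0.267). The number of long genes with a peak ranged from -18.2 (without KO 2) to 24.7 (without control 1) when 1 library was left out. It was -3.33 without control 2 and -6.33 without control 3. With lists cut to an equal length of 2918 peaks it was -15.7, and with a −log10 q-value of at least 5 it was 38.7. The long share of genes with a peak ranged from -1.25 to 0.246 (without control 1) and was 0.00282 points with a −log10 q-value of at least 5. With 1 library left out, regions called in all remaining libraries ranged from 22 to 42 (without control 1); they were 48 without control 1 and KO 2. Regions of all KO and no control libraries ranged from 12 to 34 with 1 library left out (20 without control 2, 28, 25 and 34 without KO 1, 2 and 3), and were 26 without control 1 and KO 2, 5 with lists of equal length, and 23 and 6 with gene limits of 400 and 750 kb. Regions of all control and no KO libraries ranged from 2 to 12 (without control 1), and were 20 without control 1 and KO 2 and 1 at a fold of at least 4. Leaving out a library lowers the number of lists a region must be in. Counts of regions called in only 1 genotype were not set beside all regions under these settings. For the other settings the cause was not tested. Whether the replicate numbers pair control with KO libraries was not settled. Same-number correlations over genes were 0.08, 0.12 and 0.03, and those of different numbers lay between -0.09 and 0.04. For each control the same-number value was the highest, but all were small. With the replicate number as a block the differences were 1.17 points (exact sign-flip permutation p = 1.00), 5 genes (1.00), -0.709 points (0.750) and, for summits near an end, -6.53 (0.750), where 3 pairs cannot go below 0.25. Alternatives for GC content were not run. Depth limits every absence: a peak list holds no coverage outside its peaks.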

Other observations

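Chromosome X lay outside the rule. It has 11 protein-coding genes of 500 kb or more, and 7 of them held a peak: 18, 1 and 2 peaks in controls 1, 2 and 3 and 2, 5 and 0 in KO 1, 2 and 3. Control 1 was high there, as it was on the autosomes, while KO 2 was not high to the same degree. Frmpd4, a scaffold of excitatory synapses, had 4 peaks in control 1, 1 in KO 1 and 2 in KO 2. Dmd, the dystrophin gene, and Il1rapl1, a synaptic adhesion receptor, had 3 peaks each in control 1 and 1 each in KO 2. Aff2, a nuclear RNA-binding protein, had 1 peak each in control 2, control 3 and KO 2. No comparison was made with these counts.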
